A study of Mus musculus with 6 samples.

Results

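The subject is a set of 34 mouse genes known from endothelial cells, the cells that line blood vessels: genes of cell junctions, surface receptors, secreted and luminal proteins, caveolae and fenestrae, and endothelial proteins inside the cell. The members were chosen by name, with the fold changes of the contrast described here already known, so their differences between the groups are given as a description and support nothing further. Each of the 34 symbols was found on 1 gene of the 31815 in the count table. The RNA came from cells sorted from kidney cortex and outer medulla 6 days after bilateral ischemia reperfusion injury (IRI), in which the blood flow to both kidneys is stopped and then restored. The tdT+GFP+ cells gave 3 libraries, as did the tdT-GFP+ cells, and the labels take both kinds from kidneys 1, 2 and 3 as 3 biological replicates.

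All 6 libraries came from male Axin2CreERT2/+:R26RtdT/+:Acta2-GFP mice, 9 to 12 weeks old and weighing 25 to 30 g, that had IRI and received tamoxifen on days 2 and 4 after it. The Cre recombinase is expressed from Axin2, a feedback target of Wnt signalling, and tamoxifen lets it switch on the red protein tdT for good. GFP is made under Acta2, the gene of smooth muscle actin, which marks myofibroblasts and also the muscle cells of vessels. The groups were told apart by the red label, which tdT+GFP+ cells had at the sort on day 6 and tdT-GFP+ cells did not. Unlabelled cells can include cells in which Cre was present and did not act. The gates that the labels name are against debris and doublets and for the fluorescent proteins, with DAPI in the sorting buffer.

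Endothelial cells hold to each other through VE-cadherin, claudins and other adhesion molecules, and these junctions set what leaves the vessel. Kidney endothelium is varied: capillaries around tubules have fenestrae closed by diaphragms made of the protein PLVAP, glomerular capillaries have open fenestrae, and arteries carry tighter junctions rich in claudin 5. Transcription factors of the ETS family, among them ERG and FLI1, bind DNA at a GGAA core and are known for driving many endothelial genes. Endothelium is not known for smooth muscle actin, and no endothelial marker is among the gates named. Fewer endothelial cells in a library and less of an mRNA in each of them cannot be told apart in bulk samples.

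The promoters were looked at first for letters that the members share, because the choice of members made no use of sequence. RefSeq promoters (GRCm38.p6, 250 bases before to 50 after a transcription start) were found for 18 of the 34 genes, with 20 promoters in all since Egfl7 has 3. The ETS letters CAGGAAG, searched on both strands, were in 10 of 20 member promoters (50%, exact 95% binomial interval 27.2 to 72.8%) and in 13.3% of all 32851 promoters of the table. These 10 promoters belong to Cd34, Cyyr1, Egfl7, Ehd3, Emcn, Grrp1, Rasip1, Robo4 and Ushbp1, and with only the 250 bases before the start the shares were 45% and 10.8%. The other ETS form, CCGGAAG, was in 0 of 20 (interval up to 16.8%) and in 8.86% of all promoters. The interval covers counting error only, and the 3 promoters of Egfl7 share a gene. No test was run, and a run of letters does not show that a factor binds there.

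Of the 11 CAGGAAG sites, 10 lie before the start, 4 read CAGGAAG on the gene's strand and 7 read CTTCCTG. The 7 sites whose surroundings hold no base of a GENCODE exon are shown with 11 bases on each side, on the gene's strand, with the ETS letters in capitals. Positions are those of the first capital counted back from the transcription start.
Cd34 at -142 (chr1:194938668-194938696, plus): gtacacagtggCTTCCTGccacacttaaa
Egfl7 at -90 (chr2:26580982-26581010, plus): tgggagacaaaCAGGAAGgccatctctct
Egfl7 at -49 (chr2:26581023-26581051, plus): gctggtctttcCTTCCTGaggtgcagctg
Egfl7 at -81 of its next start (chr2:26583773-26583801, plus): gagaacacacaCAGGAAGtccggcgggaa
Emcn at -174 (chr3:137340893-137340921, plus): aagaagggtctCTTCCTGttcaaatccca
Grrp1 at -116 (chr4:134254205-134254233, minus): gtaagtcaggtCAGGAAGgagttaattga
Ushbp1 at -64 (chr8:71395848-71395876, minus): gggtaggggggCTTCCTGtttcccagccc

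The other 4 sites, at -91 in Rasip1, -50 in Robo4, -162 in Cyyr1 and 6 bases into Ehd3, lie in exons of the GENCODE annotation. For a longer view, the 150 bases before the start of Grrp1, which has the letters, and of Cldn5, which does not, are given here. Neither stretch holds an annotated exon base, and the pair was chosen for this difference.
Grrp1 (chr4:134254107-134254256, minus): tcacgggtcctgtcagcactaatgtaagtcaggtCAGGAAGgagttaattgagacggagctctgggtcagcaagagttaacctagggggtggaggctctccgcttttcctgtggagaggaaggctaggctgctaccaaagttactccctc
Cldn5 (chr16:18776697-18776846, plus): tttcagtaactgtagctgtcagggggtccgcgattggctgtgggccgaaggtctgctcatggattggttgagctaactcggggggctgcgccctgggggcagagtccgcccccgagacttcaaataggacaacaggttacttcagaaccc

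Other letters were searched on both strands as well. The GATA letters AGATAA were in 10% of member promoters and 11.2% of all, the SOX letters ACAAAG in 15% and 18.7%, and the TCF/LEF letters CTTTGAT of Wnt-responsive sites in 5% and 3.73%, which here is Egfl7 alone. E-boxes (CANNTG) were in 65% and 72.3%, and the TATA letters TATAAA in 5% and 13.6%. With 20 promoters each of these member shares has an interval that holds the share of all promoters.

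Across the 6 libraries the 34 genes were lower in tdT+GFP+ than in tdT-GFP+ cells. Together they took 0.197 to 0.284% of all counts in tdT+GFP+ libraries and 0.330 to 0.561% in tdT-GFP+ libraries, ranges that do not overlap. All 34 passed the filter on low counts, with at least 103 counts in every library, and all had a negative log2 fold change, meaning lower in tdT+GFP+ cells, as did 50.1% of the 15462 genes tested. The median over the members was -1.24, against -0.0004 over all genes tested. A log2 fold change of -1 or lower was found for 22 members, against 3.91% of all genes tested. In 20 members every tdT+GFP+ library lay below every tdT-GFP+ library (8.6% of all genes tested), and in 21 the tdT+GFP+ value was the lower in all 3 kidneys (17.1%). Nothing is read from these shares, because the same contrast was known when the members were chosen.

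No gene of the 15462 passed the test. edgeR's quasi-likelihood test called 0% of genes at a Benjamini-Hochberg adjusted p under 0.05, and likewise 0% with the kidney as a block. Its smallest adjusted p was 0.388, and at an unadjusted p under 0.05 it counted 26 members lower, against 6.97% of all genes tested. DESeq2 called 22 members lower (1.81% of all genes that it gave an adjusted p), and adding the kidney as a block left 17 (1.66%), while limma-voom called 0. The words lower and higher below therefore describe values and not called changes.

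**Figure D1:**
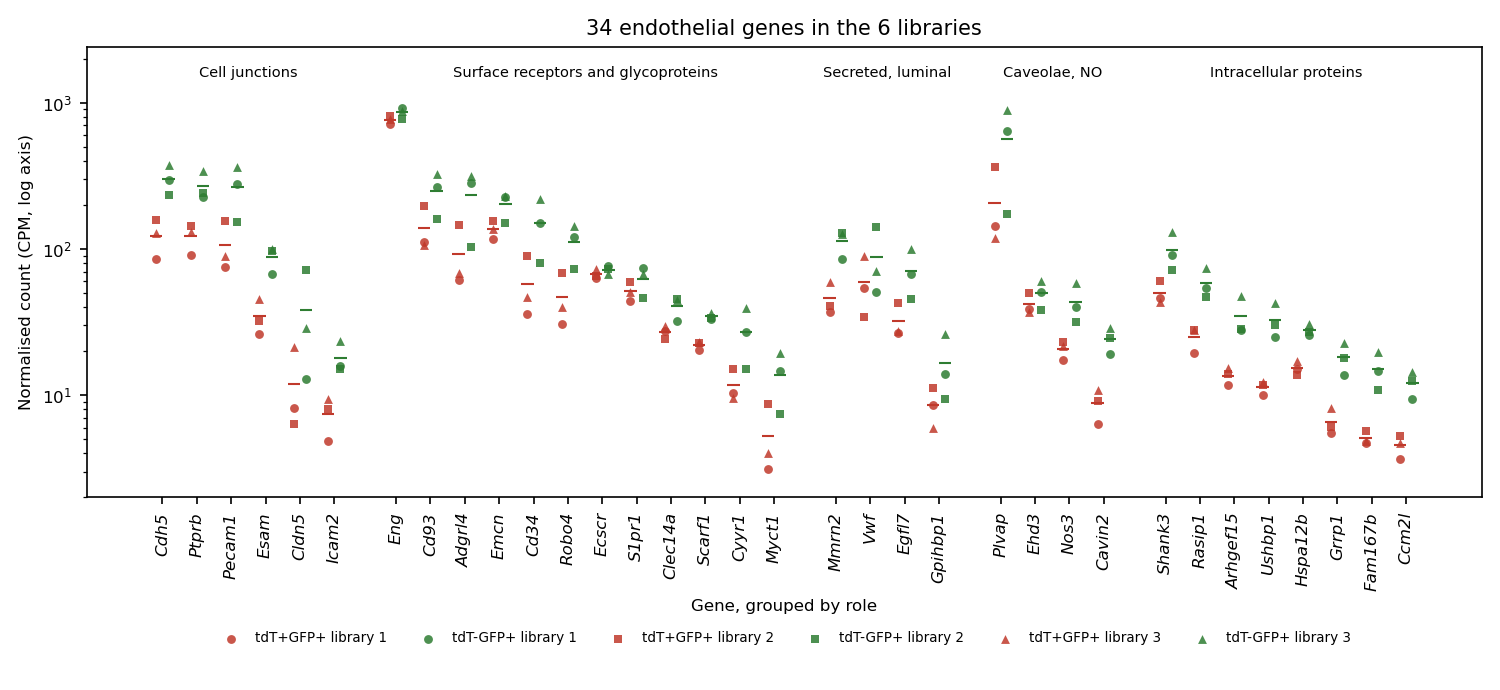
Normalised counts (CPM on a log axis) of the 34 genes in the 6 libraries, with red for tdT+GFP+ and green for tdT-GFP+ cells, marker shapes for libraries 1 to 3 and bars for group means. Intracellular proteins such as Ushbp1 show separate red and green points, Eng and Ecscr lie together, and Plvap and Cldn5 have the widest scatter within a group.

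Of the 6 genes of cell junctions, all were lower in tdT+GFP+ cells, with a median log2 fold change of -1.30. The groups of 4 did not overlap, against 8.6% of all genes tested. Levels are CPM, a gene's counts scaled to a common library total, scaled by library, given in the order of libraries 1, 2 and 3. Cdh5, the gene of VE-cadherin, the main adhesion molecule of endothelial adherens junctions (chromosome 8, 104101625 to 104144511, plus strand, GRCm38), stood at 84.9, 157 and 128 CPM in tdT+GFP+ libraries and at 297, 233 and 375 CPM in tdT-GFP+ libraries. All tdT+GFP+ values lay below all tdT-GFP+ values, and library 2 was the highest of the former and the lowest of the latter. This is a log2 fold change of -1.29, with SE 0.27 and a 95% interval of -1.93 to -0.65. Ptprb, which codes for the phosphatase VE-PTP that acts on VE-cadherin and the receptor Tie2, stood at 91.6, 143 and 131 CPM against 227, 242 and 340 CPM, a log2 fold change of -1.15 (SE 0.22).

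Esam, an adhesion molecule of endothelial tight junctions (chromosome 9, 37528078 to 37538319, plus strand), stood at 26.4, 31.9 and 45.4 CPM in tdT+GFP+ and at 67.6, 96.2 and 100 CPM in tdT-GFP+ libraries. Its groups were separate, and its log2 ratios in kidneys 1, 2 and 3 were alike at -1.36, -1.59 and -1.14. Icam2, a ligand of leukocyte integrins, was among the least abundant junction genes at 4.85, 8.09 and 9.48 CPM against 15.8, 15.1 and 23.3 CPM, a log2 fold change of -1.28 (SE 0.29) with separate groups.

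Pecam1 and Cldn5 are the junction genes whose groups overlapped. Pecam1 codes for CD31, a homophilic adhesion molecule of the endothelial border, and stood at 75.7, 156 and 89.5 CPM in tdT+GFP+ against 279, 152 and 363 CPM in tdT-GFP+ libraries. The overlap is in library 2, which was high among the former and low among the latter, and the log2 fold change was -1.31 (SE 0.39). Without both libraries of kidney 2 it was -1.97, which is past 1.5 times that value. Cldn5, the gene of claudin 5 (chromosome 16, 18776847 to 18778262, plus strand), stood at 8.15, 6.32 and 21.4 CPM against 13.0, 72.1 and 29.0 CPM. Here tdT-GFP+ library 2 was the highest of all 6, the reverse of Pecam1. The log2 fold change of -1.67 (SE 0.72), the lowest of the 34, was -2.55 without both libraries of kidney 3 and -0.52 without both of kidney 2.

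The 12 surface receptors and glycoproteins had a median log2 fold change of -0.75. Separate groups were found in 4 of them, against 8.6% of all genes tested. In kidney 2 only 5 of the 12 were lower in tdT+GFP+ cells, and the median log2 ratio there was 0.05. Robo4, a receptor that stabilises vessels, stood at 30.8, 68.9 and 40.1 CPM in tdT+GFP+ and at 121, 73.0 and 143 CPM in tdT-GFP+ libraries. The groups were separate by a narrow gap in library 2, and the log2 fold change was -1.27 (SE 0.36). Clec14a, a C-type lectin receptor of the vessel wall, stood at 27.7, 24.3 and 29.6 CPM against 32.2, 45.8 and 45.1 CPM, with separate groups and a log2 fold change of -0.59 (SE 0.16). Scarf1, a scavenger receptor, had little scatter at 20.5, 22.9 and 23.1 CPM against 33.2, 33.8 and 36.5 CPM, and its log2 fold change was -0.64 (SE 0.09).

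Cd93, which belongs to the same lectin family as Clec14a, stood at 112, 196 and 107 CPM in tdT+GFP+ and at 265, 161 and 323 CPM in tdT-GFP+ libraries. Library 2 crossed over, so the groups overlapped, and the log2 fold change was -0.85 (SE 0.33). Cd34, a sialomucin of endothelium that some fibroblasts and progenitor cells also carry, stood at 35.9, 89.2 and 47.0 CPM against 151, 79.8 and 219 CPM. Adgrl4, an adhesion receptor of growing vessels, stood at 61.6, 147 and 68.7 CPM against 281, 104 and 315 CPM. Both show the crossing in library 2, with log2 fold changes of -1.39 (SE 0.46) for Cd34 and -1.34 (SE 0.50) for Adgrl4. Emcn, the sialoglycoprotein endomucin of capillaries and veins, stood at 117, 154 and 137 CPM against 227, 151 and 229 CPM, a log2 fold change of -0.57 (SE 0.19) with an overlap in the same library.

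Cyyr1 stood at 10.3, 15.1 and 9.63 CPM in tdT+GFP+ and at 27.1, 15.1 and 39.5 CPM in tdT-GFP+ libraries, so that its groups, counted as separate, were next to each other in library 2, and its log2 fold change was -1.22 (SE 0.36). Myct1 stood at 3.14, 8.67 and 4.03 CPM against 14.6, 7.40 and 19.4 CPM, a log2 fold change of -1.38 (SE 0.49), with an overlap in library 2. Without both libraries of kidney 2 the log2 fold changes were -1.90 for Robo4, -1.43 for Cd93, -2.17 for Cd34, -2.20 for Adgrl4, -0.85 for Emcn and -2.25 for Myct1. Without both of kidney 3 they were -0.47 for Cd93, -0.88 for Cd34, -0.89 for Adgrl4, -0.73 for Cyyr1 and -0.90 for Myct1. Emcn was at -0.37 without both of kidney 1.

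The remaining 3 surface genes differed little between the groups. Eng codes for endoglin, a co-receptor of the TGF-beta family that stromal cells also carry (chromosome 2, 32646595 to 32682669, plus strand), and stood at 717, 814 and 768 CPM in tdT+GFP+ against 915, 778 and 876 CPM in tdT-GFP+ libraries. S1pr1, a receptor for sphingosine 1-phosphate, stood at 44.4, 59.2 and 50.8 CPM against 74.4, 46.2 and 67.4 CPM. Ecscr, a surface protein of endothelial cells, stood at 63.7, 65.8 and 73.3 CPM against 76.1, 72.8 and 67.3 CPM. All 3 had overlapping groups, with log2 fold changes of -0.16 (SE 0.11), -0.29 (SE 0.19) and -0.09 (SE 0.08). The value of Eng was -0.05 and that of S1pr1 -0.03 without both libraries of kidney 1, and that of Ecscr turned to 0.0053. Without both of kidney 2 Eng was at -0.28 and S1pr1 at -0.58, and without both of kidney 3 Ecscr was at -0.20. Ecscr lies with all its 9271 bases inside the gene 1700066B19Rik on the opposite strand. No source used here says whether the counting took the strand into account, and reads of these 2 genes may not be told apart.

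Among the 4 secreted and luminal proteins the median log2 fold change was -1.04, and 2 had separate groups, against 8.6% of all genes tested. Mmrn2, the matrix glycoprotein multimerin 2, a ligand of both Clec14a and Cd93, stood at 37.1, 40.6 and 59.9 CPM in tdT+GFP+ and at 86.0, 128 and 127 CPM in tdT-GFP+ libraries. Its groups were far apart, with a log2 fold change of -1.31 (SE 0.23). Egfl7, a secreted protein of the endothelial matrix, stood at 26.5, 42.5 and 27.3 CPM against 67.1, 45.8 and 99.3 CPM, a log2 fold change of -1.14 (SE 0.32) with a narrow gap in library 2. It was -0.71 without both libraries of kidney 3. Egfl7 shares 6482 bases with the gene model Gm20532 on its own strand, and its counts may be split between them.

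Vwf, the clotting glycoprotein stored by endothelial cells and platelets, had the higher tdT+GFP+ value in kidneys 1 and 3. It stood at 54.3, 34.4 and 88.9 CPM in tdT+GFP+ and at 50.8, 142 and 70.6 CPM in tdT-GFP+ libraries. Only kidney 2 had a lower value in tdT+GFP+ cells, with a log2 ratio of -2.05 against 0.10 and 0.33 in kidneys 1 and 3. The log2 fold change over all libraries was -0.57 (SE 0.47), and it turned to 0.23 without both libraries of kidney 2 and was -1.12 without both of kidney 3. Gpihbp1, which carries lipoprotein lipase to the capillary lumen, stood at 8.63, 11.2 and 6.01 CPM against 14.0, 9.42 and 26.3 CPM. It overlapped through library 2, and its log2 fold change was -0.94 (SE 0.41), or -0.24 without both libraries of kidney 3 and -1.46 without both of kidney 2.

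Of the 4 genes of caveolae, fenestrae and nitric oxide (median log2 fold change -1.26), 2 had separate groups, against 8.6% of all genes tested. Plvap (chromosome 8, 71497765 to 71511752, minus strand) stood at 142, 361 and 119 CPM in tdT+GFP+ and at 635, 172 and 886 CPM in tdT-GFP+ libraries. Library 2 was the highest of the tdT+GFP+ and by far the lowest of the tdT-GFP+ libraries, and the order of the groups was reversed in kidney 2, with a log2 ratio of 1.07 against -2.16 and -2.90 in kidneys 1 and 3. The log2 fold change of -1.44 (SE 0.67) was -2.55 without both libraries of kidney 2 and -0.68 without both of kidney 3. Plvap overlaps the gene Gtpbp3 on the other strand by 1819 bases. Nos3, the gene of endothelial nitric oxide synthase, stood at 17.3, 23.0 and 21.7 CPM against 40.4, 31.6 and 58.5 CPM, a log2 fold change of -1.07 (SE 0.24) with separate groups.

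Cavin2, a coat protein of caveolae, stood at 6.38, 9.12 and 10.9 CPM in tdT+GFP+ and at 19.2, 24.5 and 28.8 CPM in tdT-GFP+ libraries. Its groups were separate, and the log2 ratios in kidneys 1, 2 and 3 were close at -1.59, -1.42 and -1.40. All 13835 bases of Cavin2 lie across from the antisense model 9330175M20Rik, and 17423 bases of Nos3 across from Gm15587, so their counts carry the same caution as those of Ecscr. Ehd3, an endocytic recycling protein known from glomerular endothelium, stood at 38.5, 50.2 and 36.9 CPM against 50.9, 38.3 and 60.4 CPM. Its groups overlapped through library 2, and the log2 fold change of -0.25 (SE 0.19) was -0.01 without both libraries of kidney 3 and -0.57 without both of kidney 2.

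The genes of all 8 intracellular proteins had separate groups, against 8.6% of all genes tested. All 8 were lower on the tdT+GFP+ side of every kidney, against 17.1%. DESeq2 called all 8 lower with and without the kidney as a block (1.66% and 1.81% of all genes that it gave an adjusted p). Neither edgeR, with or without the block, nor limma-voom called any of them. Their median log2 fold change was -1.38. Fam167b had a log2 fold change of -1.57 (SE 0.23), from 4.73, 5.70 and 4.87 CPM in tdT+GFP+ and 14.7, 10.9 and 19.7 CPM in tdT-GFP+ libraries. Ushbp1, named for binding the Usher syndrome protein harmonin, stood at 10.1, 11.7 and 12.3 CPM against 24.9, 30.3 and 42.6 CPM, a log2 fold change of -1.52 (SE 0.21). Grrp1 stood at 5.52, 6.03 and 8.22 CPM against 13.8, 18 and 22.7 CPM, a log2 fold change of -1.47 (SE 0.23). The promoters of Ushbp1 and Grrp1 are 2 of those with the ETS letters shown above. Those of Fam167b and of Cldn5 (-1.67) lack the letters, and those of Ehd3 (-0.25) and Emcn (-0.57) have them. A link between the letters and the fold changes was not tested.

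Ccm2l is a paralog of Ccm2, a protein that binds the junctional complex of Heg1 and Krit1, and stood at 3.69, 5.29 and 4.68 CPM in tdT+GFP+ and at 9.35, 12.5 and 14.3 CPM in tdT-GFP+ libraries. Rasip1, an effector of the small GTPase Rap1 in vessel lumen formation, stood at 19.4, 27.8 and 28 CPM against 54.1, 46.9 and 73.9 CPM. Arhgef15 stood at 11.7, 13.9 and 15.3 CPM against 28, 28.3 and 47.5 CPM. The log2 fold changes of these 3 genes were -1.41 (SE 0.21), -1.22 (SE 0.22) and -1.35 (SE 0.24), and no library crossed over. Hspa12b, a distant relative of the Hsp70 chaperones, stood at 15.2, 13.7 and 17.0 CPM against 25.8, 27.0 and 30.7 CPM, a log2 fold change of -0.86 (SE 0.12). Shank3, a scaffold protein known mostly from synapses, stood at 46.4, 59.9 and 43.3 CPM against 91.3, 72.0 and 130 CPM, a log2 fold change of -0.97 (SE 0.23) that was -0.62 without both libraries of kidney 3. Rasip1 and Hspa12b share bases with Izumo1 and Gm11037, so part of their counts may belong to those genes.

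**Figure D2:**
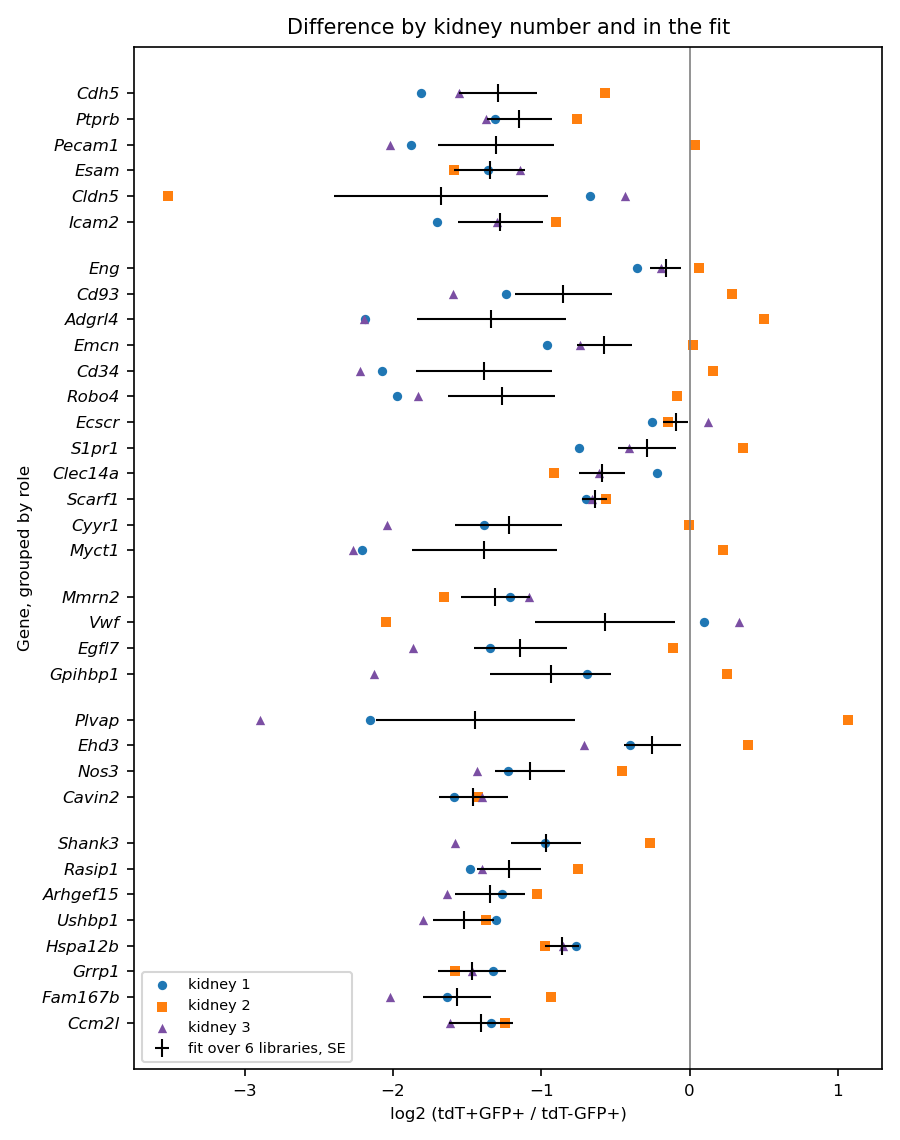
Log2 ratio of tdT+GFP+ to tdT-GFP+ cells for each gene in kidneys 1, 2 and 3 (points) and the fitted log2 fold change over 6 libraries (black, with SE). The orange points of kidney 2 lie near or right of 0 for Plvap, Adgrl4 and most surface genes, far left for Cldn5 and Vwf, and with the other kidneys for Esam, Cavin2 and Grrp1.

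Per length, as counts per kilobase of merged GENCODE exons on the same scaled totals (RPKM), the order of the genes differed between the groups. In tdT-GFP+ cells the mean level was highest for Plvap (284 RPKM), Eng (212 RPKM) and Cdh5 (71.7 RPKM) and lowest for Cyyr1 (3.06 RPKM). In tdT+GFP+ cells Eng led at 189 RPKM, before Plvap at 104 RPKM, Ecscr at 38.6 RPKM and Cdh5 at 29.3 RPKM, with Cyyr1 again last at 1.31 RPKM. The SD of Plvap over its 3 tdT-GFP+ libraries is large enough (362 CPM around a mean of 564 CPM) that its order with Eng there is not settled.

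The kidneys did not contribute alike. Lower values in tdT+GFP+ cells were found for 33 members in kidney 1, 23 in kidney 2 and 32 in kidney 3, with median log2 ratios of -1.31, -0.51 and -1.45. The mean log2 CPM over the members was 4.69, 5.16 and 5.00 for tdT+GFP+ cells against 5.91, 5.73 and 6.35 for tdT-GFP+ cells. Every tdT+GFP+ mean was below every tdT-GFP+ mean, and the smallest difference, -0.57 in kidney 2, compares with -1.22 and -1.35 in kidneys 1 and 3. Without tdT-GFP+ library 2 the number of members with separate groups was 31 in place of 20. Groups separate more easily with fewer libraries, and the share of all genes in that setting was not counted. Nothing is therefore read from the rise.

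Within a group the members did not all run alike, and 2 patterns cover most of them. In the pattern of Plvap, 18 members were highest in library 2 among tdT+GFP+ and lowest in library 2 among tdT-GFP+ libraries: Pecam1, Cdh5, Plvap, Emcn, Eng, Egfl7, Robo4, Cd93, Cd34, Fam167b, Myct1, Nos3, Adgrl4, Shank3, Cyyr1, Ehd3, S1pr1 and Gpihbp1. In the other, 11 members were highest in tdT+GFP+ library 3 and lowest in tdT-GFP+ library 1: Esam, Cldn5, Mmrn2, Clec14a, Cavin2, Grrp1, Ushbp1, Hspa12b, Scarf1, Arhgef15 and Vwf. Of these, Cldn5, Mmrn2, Clec14a and Vwf were highest in tdT-GFP+ library 2, where Plvap was lowest.

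The ratio of Plvap to Cldn5 CPM shows the range of this. It was 17.5, 57.1 and 5.56 for tdT+GFP+ cells against 48.9, 2.39 and 30.6 for tdT-GFP+ cells. Library 2 thus had the highest ratio of the tdT+GFP+ and the lowest of the tdT-GFP+ libraries, and the groups overlapped. As a description over 6 libraries, which all members share, log2 CPM of 561 member pairs correlated with a median Pearson r of 0.849. After the group means were taken off the median was 0.588, with a range of -0.884 to 0.997 and 121 negative pairs. The lowest was the pair of Plvap and Vwf. With Plvap, Ehd3 (0.988), Cd93 (0.985) and Adgrl4 (0.983) were the members most alike within groups, and with Cldn5 they were Vwf (0.969), Mmrn2 (0.870) and Clec14a (0.855).

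**Figure D3:**
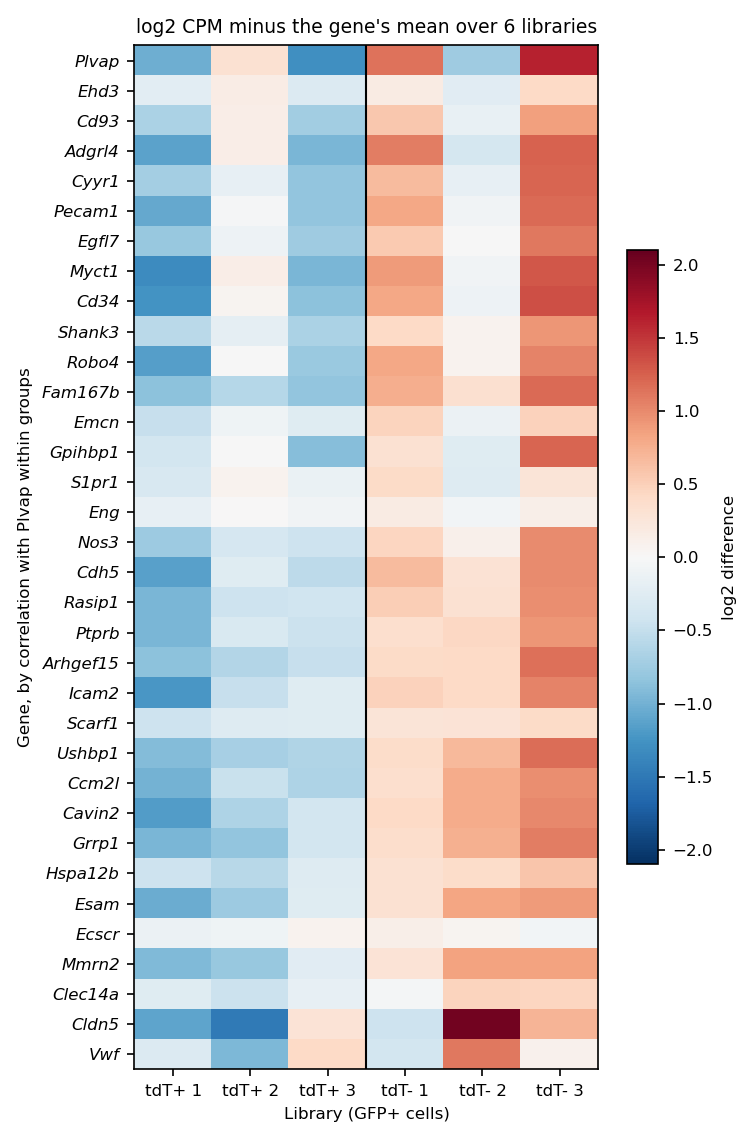
Log2 CPM of each gene minus its mean over the 6 libraries (red above, blue below), with genes ordered by their correlation with Plvap after group means were taken off. From top to bottom tdT-GFP+ library 2 goes from blue for Plvap to deep red for Cldn5, while tdT+GFP+ libraries are mostly blue and tdT-GFP+ library 3 mostly red.

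Genes known from single kinds of vessel were set beside these patterns. The capillary gene Aplnr, the apelin receptor, stood at 4.06, 14.9 and 5.97 CPM in tdT+GFP+ and at 59.4, 7.21 and 72.6 CPM in tdT-GFP+ libraries. Its r with Plvap within groups was 0.962, and among the other capillary genes it was 0.994 for Rgcc, 0.972 for Cd36, 0.967 for Fabp4, 0.949 for Cd300lg and 0.326 for Car4. Likeness to Plvap was not particular to capillary genes. The venous gene Selp had 0.996, the glomerular list's Lpl 0.939, the lymphatic list's Flt4 0.990 and Lyve1 0.264, the mural cell gene Kcnj8 0.963 and the fibroblast gene Lum 0.955. The venous, glomerular, mural cell and fibroblast lists were divided. Among their genes that ran against Plvap were Nr2f2 (-0.78), Plat (-0.9), Des (-0.565) and Col1a1 (-0.461). The arterial connexin gene Gja5 stood at 16.2, 5.25 and 31.0 CPM against 8.30, 63.8 and 13.8 CPM, with an r of 0.937 with Cldn5. The arterial list was divided: with Cldn5, Hey1 had 0.968, Bmx 0.964 and Gja4 0.953, Efnb2 0.682 and Dll4 0.574, and Unc5b -0.43 and Cxcr4 -0.73. The last 2 had 0.705 and 0.823 with Plvap. The transcription factor gene Sox17 had 0.980 with Cldn5. Of the genes in this paragraph, those other than Aplnr, Fabp4, Cd36, Flt4, Lpl, Unc5b, Dll4 and Efnb2, and the members themselves, were named after their values were seen. These likenesses rest on the same 6 libraries and carry no test.

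**Figure D4:**
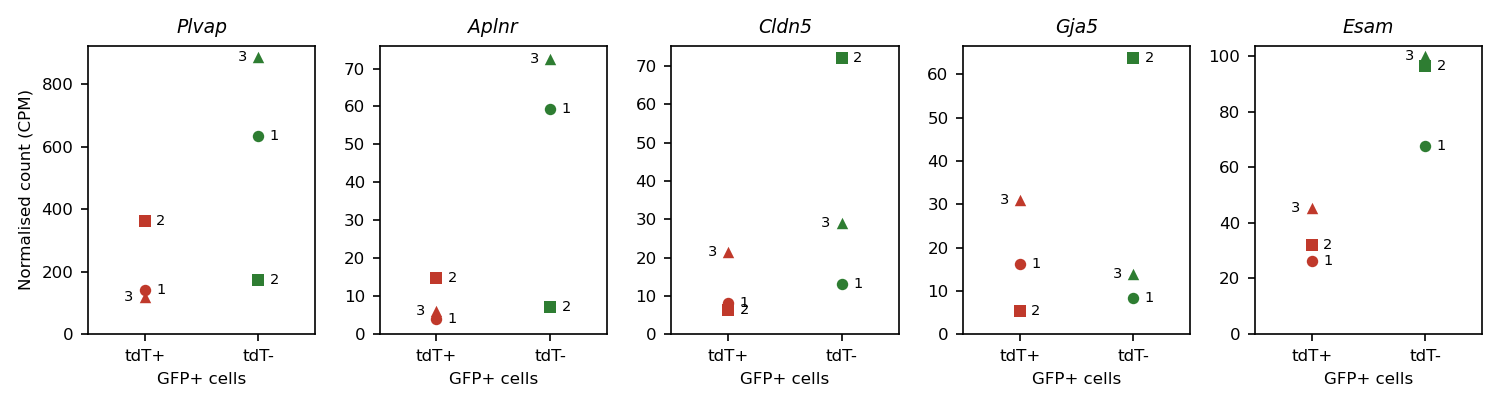
Normalised counts (CPM, linear axis from 0) of Plvap, Aplnr, Cldn5, Gja5 and Esam in the 6 libraries, numbered 1 to 3 within tdT+GFP+ (red) and tdT-GFP+ (green) cells. Library 2 of tdT-GFP+ cells is low for Plvap and Aplnr and high for Cldn5 and Gja5, and Esam has separate groups.

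Other genes of endothelium and its junctions were taken from fixed lists. Of 18 receptors and transcription factors 15 were lower in tdT+GFP+ cells (50.1% of all genes tested), with a median log2 fold change of -1.14. Separate groups were found in 9, against 8.6% of all genes tested. The VEGF receptor gene Flt1 had -1.16 (SE 0.26), while Nrp1, a VEGF co-receptor that stromal cells also carry, had -0.03 (SE 0.09) and the flow-responsive factor Klf2 had 0.05 (SE 0.20). Fli1 and Lyl1 were the others with positive values, 0.03 (SE 0.10) and 0.22 (SE 0.45). Erg, introduced above with Fli1 as an ETS factor and named after its values were seen, had -1.26 (SE 0.23) with separate groups. Of the 18 partners of the junction proteins 11 were lower, with a median of -0.07. Ctnnb1 and Ctnna1, the catenins that tie VE-cadherin and other cadherins to actin, had -0.14 (SE 0.09) and -0.02 (SE 0.10). The complex to which Ccm2l is related had -0.06 (SE 0.16) for Heg1, 0.16 (SE 0.09) for Krit1 and 0.18 (SE 0.10) for Ccm2, beside -1.41 for Ccm2l itself. The junction adhesion gene F11r stood lowest at -1.01 (SE 0.23).

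By kind of vessel, 8 of 8 arterial genes were lower (median -0.82), 4 of 6 venous (-0.49), 5 of 6 capillary (-1.27), 4 of 6 glomerular (-0.22) and 3 of 6 lymphatic genes (-0.18). Several of these genes are also known outside endothelium, among them Nr2f2 (0.23, SE 0.14) and Plat (0.12, SE 0.17). No gene of these lists passed edgeR's test.

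**Figure D5:**
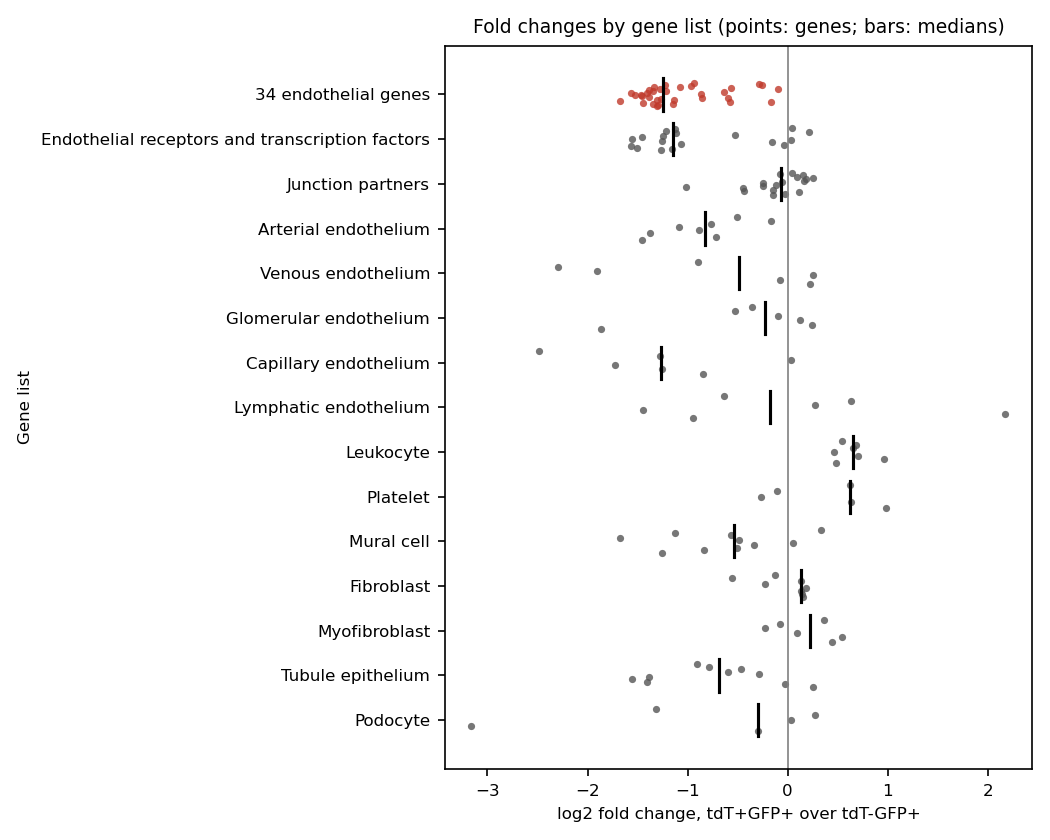
Log2 fold changes of single genes (points) by list, with the list medians (bars) and the 34 members at the top in red. The members lie between -1.67 and -0.09, the receptors and transcription factors have a similar median, and the junction partners lie around 0.

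Markers of other cells and measures of the libraries were read as a check of the sort. Axin2 stood at 52.8, 29.7 and 64.2 CPM in tdT+GFP+ against 43.0, 64.2 and 27.3 CPM in tdT-GFP+ libraries, with overlap, and Acta2 at 1577, 1416 and 1747 CPM against 1588, 944 and 943 CPM. Fibroblast (3 of 8 lower, median 0.13) and myofibroblast markers (2 of 6 lower, 0.23) summed to more than any other list in all 6 libraries, mostly through collagens, Fn1, Tnc and Acta2, while Cthrc1 was at 7.46 to 13.8 CPM. Of 10 tubule markers 9 were lower in tdT+GFP+ cells (median -0.69), with summed levels of 537 to 877 CPM against 792 to 1900 CPM. Groups were separate in 1 of them (8.6% of all genes tested). Umod, the most abundant, had -1.40 (SE 0.66), while Slc34a1 had 0.25 (SE 0.54). Of 10 mural cell markers 8 were lower (-0.53), with 2466 to 2847 CPM against 2659 to 3412 CPM, and 3 had separate groups (8.6%). The largest part of these sums was Pdgfrb, at 1481, 1587 and 1663 CPM against 1758, 1432 and 1370 CPM. Rgs5, named after its values were seen, had separate groups at 94.0, 169 and 185 CPM against 316, 268 and 487 CPM (-1.26, SE 0.32). Of 5 podocyte markers 3 were lower (-0.29), with 395 to 469 CPM against 483 to 602 CPM. Groups were separate in 2 of the 5 (8.6% of all genes tested), among them Podxl at 69.0, 83.2 and 94.8 CPM against 155, 178 and 283 CPM. The most abundant podocyte marker, Synpo, overlapped at 291, 282 and 338 CPM against 340, 271 and 278 CPM. None of the 7 leukocyte markers tested was lower in the fit (median 0.66), though all 7 were lower in kidney 3 and 0 in kidneys 1 and 2, with 139 to 443 CPM against 128 to 284 CPM, and of 5 platelet markers tested 2 were lower (0.62), with 7.61 to 12.1 CPM against 5.08 to 8.68 CPM. The leukocyte sum was highest in tdT+GFP+ library 2 and lowest in tdT-GFP+ library 2, as Plvap was among the tdT+GFP+ and the tdT-GFP+ libraries. Gene models that overlap ribosomal RNA took 0.429 to 0.666% of counts in tdT+GFP+ and 0.859 to 1.31% in tdT-GFP+ libraries, and mitochondrial genes 2.83 to 3.40% and 2.41 to 2.84%. The part of any of these in the differences of the endothelial genes was not tested.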

How the data were processed

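RNA from 3 tdT+GFP+ and 3 tdT-GFP+ libraries was made into strand-specific poly(A) libraries, per the labels' protocols. The table that the authors deposited holds, per the file headers, the estimated counts of RSEM for each gene, which were already whole numbers, so rounding changed 0 values. The submitters' processing notes name the aligner STAR 2.6.1 and the counter RSEM 1.2.28, beside bcl2fastq 2.20, R 3.6.3 and the test DESeq2 1.26.0, and the builds mm10 and GRCh38 with no role. The sources used here give neither the annotation release nor whether counting took the strand into account. The 92 ERCC spike-in entries were 0 in all libraries and left out. Of 31815 gene identifiers 31748 were found in GENCODE M21 (GRCm38), which gave coordinates and exon lengths. Library totals were 33029933, 31458682 and 26919514 counts in tdT+GFP+ and 31337198, 26096727 and 25697348 in tdT-GFP+ libraries 1, 2 and 3. A count of 3 is 0.0908 to 0.117 CPM there.

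After filterByExpr and TMM scaling, edgeR 4.0.16 in R 4.3.3 gave the quasi-likelihood test (robust glmQLFit, then glmQLFTest), with the group alone in the model, Benjamini-Hochberg adjustment over 15462 genes and a threshold of 0.05. The 95% intervals and SE are of the unshrunken coefficients. Mean log2 CPM used a prior count of 2. Alternatives were other size factors and filters, DESeq2 1.42.0, limma-voom 3.58.1, the kidney as a block, and leaving out each library or kidney. The procedure was run on simulated data with known changes, as a check of the code and of the direction of fold changes. Recovery of the changes was required only where the simulated counts had less spread than the data. The simulation therefore does not show what the test could call here. The members and lists were chosen with earlier results of these data known, and all members, the 3 most abundant genes of each other list and genes against their list's direction could be named, as could all junction partners.

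By the labels, libraries with the same number share a kidney, which pairs them. Deviations from the group means, over all genes tested, correlated by 0.04, -0.58 and -0.30 in kidneys 1, 2 and 3, while tdT+GFP+ library 2 with tdT-GFP+ library 3 gave 0.45 and tdT+GFP+ library 3 with tdT-GFP+ library 2 gave 0.44. Such values are not independent and do not show whether a number is right, and all values per kidney rest on the labels. P-values of the main test, with the group alone in the model, rest on the spread between libraries within the groups. They leave out the pairing, which only the fits with the kidney as a block use.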

Additional observations from a re-analysis of the deposited data

How the results depend on the processing

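edgeR called 0 genes higher and 0 lower with other size factors, other filters, limma-voom in its place, or any library or kidney left out. With the kidney as a replicate block edgeR again called 0. DESeq2 called 17 genes higher and 264 lower, and with the kidney as a replicate block 41 higher and 237 lower, and the cause of the difference from edgeR was not tested. The pairing by kidney left the members' median log2 fold change at -1.25 in edgeR. Over the 17 alternatives this median ran from -1.44 to -0.89, the lowest without replicate 2 and the highest without replicate 3, and 32 of the 34 members kept a negative sign in all of them. The exceptions were Ecscr, at 0.0053 without replicate 1 and from there down to -0.20 with other replicates left out, and Vwf, at 0.23 without replicate 2 and down to -1.12 without replicate 3. With 1 library or kidney left out, 33 to 34 members were lower and 19 to 31 had separate groups, with 31 without tdT-GFP+ replicate 2 and without both libraries of replicate 2. The shares of all genes in these settings were not counted. The members had at least 103 counts in each library, and the effect of depth on the calls was not tested.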
